A study of Homo sapiens with 18 samples.

Results

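Spheroids of control MDA-MB-231 cells that had spent 48 h inside a collagen hydrogel were compared with control spheroids taken straight from the hanging droplets in which they had formed. MDA-MB-231 is a human triple-negative breast cancer cell line that moves through tissue as single, spindle-shaped cells. The comparison uses 6 of the 18 libraries of the series, 3 per group, chosen by their genotype and treatment labels alone. The first group carried the genotype Wildtype, had formed over 5 days in droplets, was then embedded in collagen for 48 h, and was freed from the cut gel with type 7 collagenase (2 mg/ml, 37 °C) before RNA was extracted. The second group carried the same genotype, was washed off the plate after the same 5 days in droplets, and saw neither gel nor enzyme. Matrix, time in culture, handling and digestion therefore change together, and their effects cannot be told apart. Both groups were made from spheroids of 2000 cells, with 100000 cells per sample. Nothing in the labels says that the 3 libraries of a group came from separate cultures, so p-values measure the spread between these samples, which may be technical.

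The series asks how control cells and cells targeted in MMP14, the gene of a membrane-bound collagenase, invade collagen. Another 3 groups are used beside the comparison, each with 3 libraries: MMP14-KO spheroids after 48 h in collagen, MMP14-KO spheroids from droplets, and control spheroids after 24 h in collagen. Poly-A RNA was sequenced as 151 bp pairs, and the deposited values are expected counts per gene.

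As background, cells in a compact spheroid touch other cells on all sides, while cells entering a collagen gel attach to fibres through integrins and pull on them with actin bundles. Tension of this kind lets the coactivators YAP and TAZ enter the nucleus and act with TEAD factors, and the falling pool of monomeric actin frees the MRTF coactivators of SRF. Growth factors and adhesion also switch on immediate-early genes, such as FOS and EGR1, within minutes, and the genes of DNA replication and of mitosis follow each other through the cell cycle under E2F factors and the DREAM complex. Interferon and NF-kB factors drive antiviral, antigen-presentation and chemokine genes, and MDA-MB-231 cells are known for constitutive NF-kB activity.

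The 6 libraries held 21368840 to 27930587 counts. Of 17030 genes tested, 4722 (27.7%) were higher and 4686 (27.5%) lower at 48 h in collagen than in droplets at an adjusted p under 0.05 (edgeR's quasi-likelihood test on all 18 libraries, Benjamini-Hochberg adjustment, used for every adjusted p given here). At least 2-fold higher were 861 genes (5.06%), and at least 2-fold lower were 1010 (5.93%). All 3 collagen libraries lay above all 3 droplet libraries for 5270 genes (30.9%), and below them for 5255 genes (30.9%). The first principal component of the 6 libraries held 43.5% of their variance and separated the groups. Levels are CPM, counts scaled to the library size, after TMM scaling, log2 fold changes are 48 h in collagen over droplet, and ± beside one is its standard error. A list's members are read against the 27.7% and 27.5% of all genes, and against a median log2 fold change of 0.005 over all genes.

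The libraries carried the markers of the labelled line. Of 10 genes typical of it, all were detected, and their summed level was 8041 to 8337 CPM at 48 h in collagen and 5204 to 5577 CPM in droplets. VIM, the intermediate filament gene of mesenchymal cells, made up the largest share, with 3419, 3291 and 3461 CPM at 48 h, against 2047, 1929.7 and 2195 CPM in droplets. SPARC did not exceed 1.51 CPM. Of the 10, 7 were called higher, and SPARC and ZEB1 did not pass. S100A4 was called lower, at 332 to 422 CPM at 48 h and 471 to 505 CPM in droplets. The oestrogen receptor gene ESR1, which triple-negative cells lack, lay at 0.0835 to 0.274 CPM at 48 h and 0.0467 to 0.214 CPM in droplets. Of the other luminal markers, PGR and FOXA1 did not exceed 0.209 and 0.0753 CPM, but several were detected. KRT8 lay at 512 to 546 CPM at 48 h and 491 to 522 CPM in droplets, and XBP1 at 80.1 to 85.4 and 133 to 138 CPM. GATA3 lay at 6.77 to 8.34 and 9.53 to 10.6 CPM, and TFF1 at 0.691 to 1.84 and 10.3 to 13.3 CPM. MMP14, not targeted in these cells, stood at 1550.1, 1506 and 1284 CPM at 48 h in collagen, against 1956, 1928 and 2249.7 CPM in droplets (log2 fold change -0.50 ± 0.081, adjusted p = 2.4e-05). In MMP14-KO spheroids it stood at 163, 143 and 138 CPM at 48 h in collagen and 159, 149 and 156 CPM in droplets, below every control library, and the difference of its 2 responses, MMP14-KO minus control, was 0.44 ± 0.12 (adjusted p = 0.030), a call lost without any 1 of 8 libraries. Of 10 leukocyte markers, CD3E and MS4A1 had no count in any of the 6 libraries, and the list summed to 109 to 130 CPM at 48 h and 145 to 155 CPM in droplets, mostly from CD68. The myeloid markers CD14 and LYZ were detected. CD14 lay at 7.34 to 9.56 CPM at 48 h and 21.1 to 22.5 CPM in droplets. LYZ, called lower, lay at 2.24 to 2.43 CPM at 48 h and 7.89 to 10.7 CPM in droplets. Of 8 endothelial markers ERG had no count and CDH5 did not exceed 0.0391 CPM. PECAM1, at 9.07 to 15.1 CPM at 48 h and 28.3 to 31.5 CPM in droplets and called lower, and KDR, at 5.52 to 7.64 CPM at 48 h and 4.07 to 4.86 CPM in droplets and called higher, made up most of the list, which summed to 18 to 21.8 CPM at 48 h and 34.4 to 37.7 CPM in droplets. Fibroblast markers summed to 104 to 127 CPM at 48 h and 82.3 to 91.5 CPM in droplets, mostly from COL6A3, COL1A1 and PDGFRB. COL6A3 lay at 65.1 to 89.0 CPM at 48 h and 30.0 to 44.1 CPM in droplets. PDGFRB lay at 10.4 to 11.6 CPM at 48 h and 23.3 to 27.9 CPM in droplets. Of the 7 tested members, 2 were called higher and 3 lower. DCN had no count at 48 h, and THY1 did not exceed 0.0783 CPM. Fewer cells of a type and less RNA per cell cannot be told apart in such bulk samples.

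Of 173 genes given with values, 60 overlap a gene with counts on the other strand and 19 one on the same strand in GENCODE 29. Whether counting used strand is not given in the sources used here, so reads of such a pair cannot be told apart. The partner held more than 10% of the gene's own counts for 13 of them: C3, CA9, CIITA, CLDN7, FOSB, HSPD1, IFIT1, IRF9, ITGA1, JUNB, KRT18, KRT8 and SQSTM1.

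**Figure D1:**
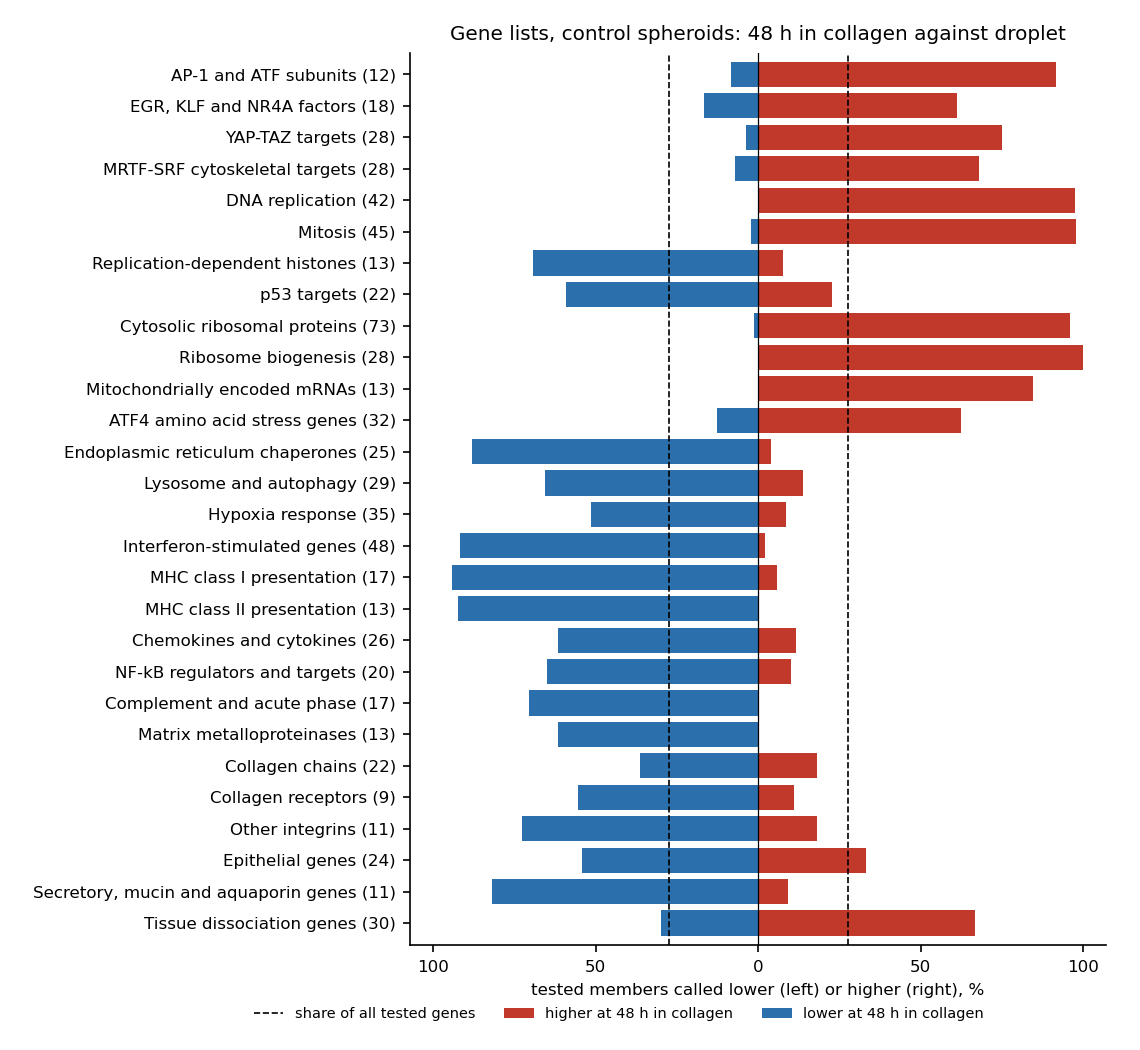
Share of the tested members of 28 gene lists called lower (blue, left) or higher (red, right) at 48 h in collagen than in droplets, in percent, with the number of tested members in brackets; dashed lines mark the shares of all tested genes (27.7% higher, 27.5% lower). Replication, mitosis, ribosome and AP-1 lists lie almost wholly to the right, and interferon, antigen-presentation, chaperone and secretory lists to the left.

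The immediate-early genes FOSB and FOS gave the 2 largest rises among the named genes. Of 12 subunits of AP-1 and its relatives, dimeric factors that bind TGA-containing sites, 11 were higher and 1 lower at 48 h in collagen, with a median log2 fold change of 0.782. FOSB, which encodes a Fos-family subunit and lies at chr19:45467995-45475179 (GRCh38, GENCODE 29), had 143, 110 and 129.9 CPM at 48 h in collagen, against 1.59, 1.64 and 1.17 CPM in droplets (log2 fold change 6.44 ± 0.16, adjusted p = 1.2e-14). No droplet library came near the collagen libraries. FOS had 521, 451 and 469.5 CPM at 48 h in collagen, against 7.57, 6.17 and 5.64 CPM in droplets (log2 fold change 6.23 ± 0.13, adjusted p = 1.8e-15). ATF3, a stress-induced partner of these subunits, had 49.8, 46.5 and 59.1 CPM at 48 h in collagen, against 7.81, 6.46 and 6.17 CPM in droplets (log2 fold change 2.94 ± 0.15, adjusted p = 1.9e-10). FOSL1, the Fos relative that marks invasive breast cancer lines, had 278, 288 and 294 CPM at 48 h in collagen, against 85.5, 89.9 and 100.5 CPM in droplets, and its log2 fold change was 1.64 ± 0.084 (adjusted p = 4.9e-12). The partners JUN and JUNB changed less, with log2 fold changes of 0.92 ± 0.062 and 0.80 ± 0.11. The only member that fell was BATF, a lymphoid relative, at 0.470, 0.668 and 1.17 CPM at 48 h, against 1.68, 1.93 and 1.32 CPM in droplets (log2 fold change -1.10 ± 0.35, adjusted p = 0.010), and its call was lost without control 48 h replicate 1.

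The second immediate-early list, 18 zinc finger factors, nuclear receptors and RNA-decay genes, was divided. It had 11 higher and 3 lower members, and a median of 0.384. EGR1, a zinc finger factor, rose to 150.2, 147 and 136 CPM at 48 h in collagen, against 26.2, 23.3 and 24.7 CPM in droplets (log2 fold change 2.55 ± 0.13). The orphan receptor gene NR4A1 stood at 28.0, 22.1 and 30.3 CPM at 48 h, against 4.63, 3.68 and 2.14 CPM in droplets (log2 fold change 2.97 ± 0.35). ZFP36, which destabilises cytokine mRNAs, had 83.6, 68.4 and 67.1 CPM at 48 h, against 16.7, 16.1 and 15.01 CPM in droplets. Collagen libraries lay above droplet libraries throughout. MYC, the growth regulator, had 125, 123 and 133 CPM at 48 h in collagen, against 51.5, 54.0 and 51.2 CPM in droplets (log2 fold change 1.28 ± 0.051, adjusted p = 1.6e-14). The members that fell were EGR3, with a log2 fold change of -0.74, IER3, with -0.37, and BTG2, an antiproliferative gene close to its detection limit. BTG2 had 0.117, 0 and 0.0432 CPM at 48 h, against 0.327, 0.2498 and 0.301 CPM in droplets (log2 fold change -2.30 ± 0.74, adjusted p = 0.011); it was -3.50 without control 48 h replicate 1, and without replicate 2 it did not pass. DUSP1, a phosphatase that switches off MAP kinases, had 231, 223 and 236 CPM at 48 h in collagen, against 24.02, 23.4 and 19.3 CPM in droplets (log2 fold change 3.37 ± 0.12, adjusted p = 2.2e-12). Of 17 feedback inhibitors of that pathway, 4 were higher and 8 lower. The ERK phosphatase gene DUSP6 did not pass (log2 fold change -0.03 ± 0.065, adjusted p = 0.70), and SPRED2, an inhibitor of RAS signalling, fell (log2 fold change -0.65 ± 0.057, adjusted p = 3.3e-09). HBEGF, a ligand of the EGF receptor, rose to 113, 109.7 and 114 CPM, against 47.1, 43.4 and 47.8 CPM in droplets. Its receptor gene EGFR had 411, 441 and 469.5 CPM at 48 h, against 296, 286 and 285 CPM in droplets. The collagen libraries lay above the droplet libraries for both genes.

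A list of 30 genes that respond to tissue dissociation shares many of these members. Of its 30 members, 20 were higher and 9 lower at 48 h in collagen (median 0.404), and it summed to 12584 to 13182 CPM at 48 h and 9849 to 9988 CPM in droplets. Only the collagen groups were digested with collagenase, and the part of the digestion in the immediate-early results was not tested. Members that fell included the inducible heat shock gene HSPA1A, at 85.3, 88.8 and 83.0 CPM at 48 h, against 123, 112 and 91.3 CPM in droplets (log2 fold change -0.34 ± 0.089, adjusted p = 0.0030). Its neighbour HSPA1B had a log2 fold change of -0.35 ± 0.061, and as near-identical copies the pair shares reads.

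Targets of YAP and TAZ rose together. Of 28 tested targets, 21 were higher and 1 was lower, and the median log2 fold change was 0.615. CCN1, a matricellular protein secreted under tension (chr1:85580761-85583962), had 1476, 1598 and 1897 CPM at 48 h in collagen, against 167, 159 and 133 CPM in droplets (log2 fold change 3.44 ± 0.12, adjusted p = 1.8e-12), which made it one of the 5 largest gains in CPM of the comparison. Here and below, gains and losses in CPM are ranked only among called genes of at least 5 CPM whose groups did not overlap. CCN2 had 675, 684 and 801 CPM at 48 h in collagen, against 86.1, 82.2 and 86.7 CPM in droplets (log2 fold change 3.08 ± 0.085, adjusted p = 4.6e-16). ANKRD1, a stretch-responsive ankyrin repeat protein, stood at 344, 310.0 and 377 CPM at 48 h, against 82.7, 91.1 and 73.0 CPM in droplets (log2 fold change 2.06 ± 0.11). The coagulation initiator F3 (tissue factor) had 358, 381 and 438 CPM at 48 h, against 92.7, 104 and 91.4 CPM in droplets (log2 fold change 2.03 ± 0.078). The receptor tyrosine kinase gene AXL had 1092, 1078 and 1220.0 CPM at 48 h in collagen, against 351, 345 and 339 CPM in droplets (log2 fold change 1.71 ± 0.061, adjusted p = 3.7e-15). In each of these 5 genes the lowest collagen library exceeded the highest droplet library by more than 3 times in level. The exception was NUAK2, a kinase gene that also lies downstream of YAP, at 4.03, 3.93 and 3.32 CPM at 48 h in collagen, against 7.38, 7.46 and 8.35 CPM in droplets (log2 fold change -1.04 ± 0.17, adjusted p = 1.5e-05). The genes of the pathway itself did not move one way: of 15, 5 were higher and 4 lower. WWTR1, the gene of TAZ, had 189, 171 and 161 CPM at 48 h, against 293, 305 and 326 CPM in droplets (log2 fold change -0.83 ± 0.066, adjusted p = 8.1e-10). YAP1 was slightly lower (log2 fold change -0.15 ± 0.049, adjusted p = 0.012), a call lost without control droplet replicate 3. Among the DNA-binding partners, TEAD4 was higher (log2 fold change 0.82, adjusted p = 1.3e-07) and TEAD2 lower (log2 fold change -1.31, adjusted p = 4.1e-10).

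Promoters of 2 of these targets are shown because the members moved together and the motif read by TEAD factors is known. Sequences are from RefSeq (GRCh38.p14), 5′ to 3′ on the gene's strand, from the 250 bases before its start, with GGAATG, searched on both strands, in capitals. CCN2 (chr6:131951447-131951556, minus strand) and ANKRD1 (chr10:90921204-90921313, minus strand) are shown.
CCN2: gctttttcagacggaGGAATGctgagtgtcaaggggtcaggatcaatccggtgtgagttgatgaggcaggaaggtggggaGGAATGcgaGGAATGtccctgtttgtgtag
ANKRD1: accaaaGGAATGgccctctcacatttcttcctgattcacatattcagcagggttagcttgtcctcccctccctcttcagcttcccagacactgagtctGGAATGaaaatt
CCN2 held 3 matches, which began 169, 104 and 95 bases before its start, and ANKRD1 held 2. Of the 28 targets, 18 had a promoter in the table and 9 of them (50%) held the motif, against 14.3% of all 27305 promoters and 13.3% of the 11816 tested genes that matched the table. The share was 16.1% among genes at least 2-fold higher and 14.2% among genes at least 2-fold lower. In the other lists searched it ranged from 0.0% (AP-1 subunits and metalloproteinases) to 36.0% (9 of 25 cytoskeletal targets of SRF). Chemokines and cytokines, most of which fell, had 26.3% (5 of 19). A match describes the letters and is not a bound site. The AP-1 motif TGANTCA, searched on both strands, stood in 9.53% of promoters of genes at least 2-fold higher, 11.7% of those at least 2-fold lower, 6.56% of tested genes and 8.06% of all, and the CCAAT box (CCAAT, both strands) in 44.2%, 37.3%, 41.0% and 37.0% in the same order.

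Cytoskeletal targets of SRF, which respond to the pool of monomeric actin, followed with smaller changes: 19 of 28 were higher, 2 lower, and the median was 0.352. FLNC, the muscle filamin, had 206, 220.2 and 262 CPM at 48 h in collagen, against 61.3, 58.6 and 55.2 CPM in droplets (log2 fold change 1.98 ± 0.084, adjusted p = 3.6e-13). ACTB, the gene of beta-actin, gained the second most CPM of the genes so ranked, with 4741, 4772 and 4801 CPM at 48 h in collagen, against 2803, 2701 and 2809.5 CPM in droplets (log2 fold change 0.78 ± 0.050). Tropomyosin TPM1 and alpha-actinin ACTN1 had log2 fold changes of 1.07 ± 0.074 and 0.52 ± 0.054. MYL12A, a myosin light chain, and PDLIM5, a PDZ and LIM protein, were the 2 members that fell (log2 fold change -0.30, adjusted p = 1.8e-04, and log2 fold change -0.24, adjusted p = 0.0011).

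**Figure D2:**
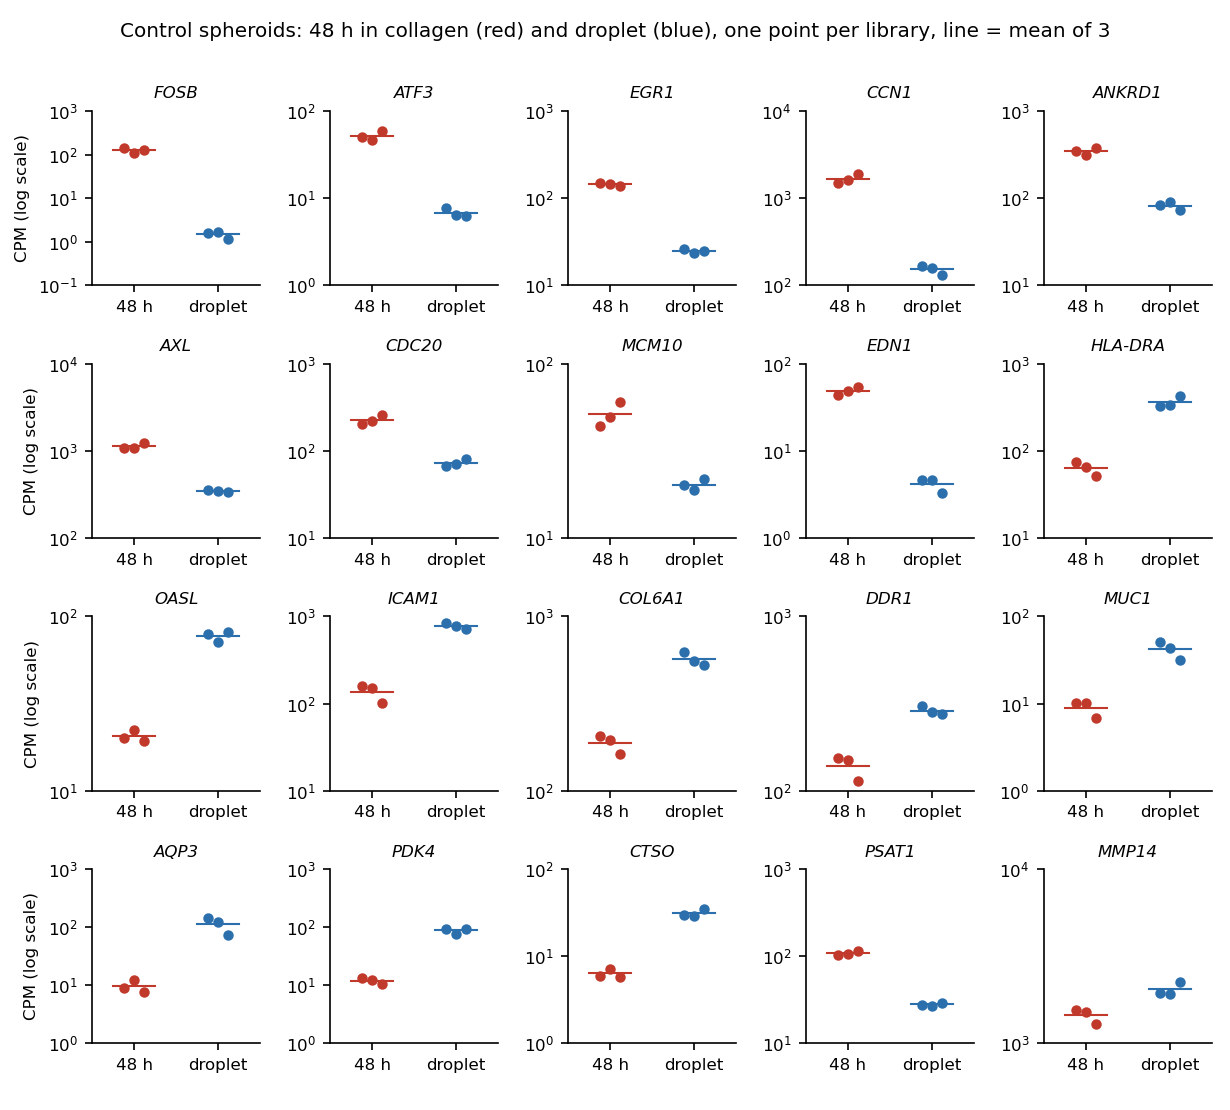
CPM on a log scale of 20 genes in each library of control spheroids, with 48 h in collagen (red) left of droplet (blue); each point is a library and the line is the mean of 3. The groups do not overlap in any of the 20 genes; FOSB is separated most, and MMP14 (1550.1, 1506 and 1284 CPM at 48 h, 1956, 1928 and 2249.7 CPM in droplets) least in ratio.

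Transcripts of several matrix proteases and collagen receptors were lower in collagen. Of 13 matrix metalloproteinases, enzymes that cut matrix proteins, none was higher and 8 were lower, with a median of -0.686. Beside MMP14, its membrane-anchored relatives MMP15 and MMP16 fell. MMP15 had 8.26, 9.19 and 6.91 CPM at 48 h, against 13.4, 12.6 and 12.9 CPM in droplets (log2 fold change -0.67 ± 0.10, adjusted p = 6.0e-06), and MMP16 had 4.50, 6.10 and 4.66 CPM at 48 h, against 14.2, 13.6 and 12.6 CPM in droplets (log2 fold change -1.40 ± 0.12, adjusted p = 4.0e-09). The secreted collagenase gene MMP13 was at a low level, 0.744, 0.501 and 0.648 CPM at 48 h, against 4.44, 4.03 and 4.67 CPM in droplets (log2 fold change -2.78 ± 0.29, adjusted p = 4.7e-08), and so was the gelatinase gene MMP9 (log2 fold change -1.66, adjusted p = 2.9e-04). MMP1, the interstitial collagenase that these cells secrete, stood at 252, 314 and 244 CPM at 48 h, against 152, 207 and 247 CPM in droplets and did not pass (log2 fold change 0.42 ± 0.18, adjusted p = 0.067). The groups overlapped through control droplet replicate 3, and without it MMP1 was higher (log2 fold change 0.59, adjusted p = 0.020). Of 6 inhibitors, 2 were higher and 3 lower. TIMP3, an inhibitor bound to the matrix, was among the 5 largest losses in CPM, with 1595, 1429.9 and 1143 CPM at 48 h, against 2564, 2300.4 and 2357 CPM in droplets (log2 fold change -0.79 ± 0.11, adjusted p = 1.2e-05), and TIMP1 fell too (log2 fold change -0.55, adjusted p = 4.1e-04). The broad protease trap A2M fell to 12.7, 17.6 and 8.202 CPM, against 98.7, 68.3 and 50.9 CPM in droplets (log2 fold change -2.49 ± 0.42, adjusted p = 2.3e-04). TIMP2 rose slightly (log2 fold change 0.20, adjusted p = 0.0024).

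The plasminogen system changed in both directions. PLAU, the urokinase gene, had 435, 447 and 456 CPM at 48 h, against 223, 227 and 247 CPM in droplets (log2 fold change 0.94 ± 0.064, adjusted p = 6.6e-11). An inhibitor of urokinase and thrombin, SERPINE2, moved the other way, with 36.8, 40.0 and 29.4 CPM at 48 h in collagen, against 296, 243 and 159.5 CPM in droplets (log2 fold change -2.72 ± 0.26, adjusted p = 1.5e-06). The receptor gene PLAUR did not pass, at 148, 143 and 142 CPM at 48 h in collagen, against 141, 145 and 169 CPM in droplets.

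Genes of the matrix that the cells make were mixed. Of 22 collagen chains, 4 were higher and 8 lower. COL6A1, a chain of the beaded collagen VI, had 206, 195 and 163 CPM at 48 h, against 623, 555 and 523 CPM in droplets (log2 fold change -1.59 ± 0.097, adjusted p = 3.0e-10). COL6A2, its partner chain, had 33.9, 32.2 and 28.5 CPM at 48 h, against 66.3, 60.0 and 64.3 CPM in droplets (log2 fold change -1.01 ± 0.077, adjusted p = 4.6e-10). The third chain of the same collagen went the other way: COL6A3 had 65.1, 89.0 and 73.8 CPM at 48 h in collagen, against 30.0, 31.8 and 44.1 CPM in droplets (log2 fold change 1.10 ± 0.23, adjusted p = 0.0011). COL18A1, source of endostatin, fell (log2 fold change -1.23, adjusted p = 1.6e-12), and COL12A1, a fibril-associated collagen, rose (log2 fold change 1.15, adjusted p = 2.0e-05). Of 23 glycoproteins of the matrix, 4 were higher and 11 lower. CCN3, a relative of CCN1 and CCN2, fell to 18.6, 18.8 and 18.04 CPM at 48 h, against 73.5, 70.4 and 58.1 CPM in droplets (log2 fold change -1.86 ± 0.076, adjusted p = 2.4e-14). Thrombospondin THBS1 rose to 976, 1077 and 1356 CPM at 48 h, against 637, 614 and 733 CPM in droplets (log2 fold change 0.78 ± 0.13, adjusted p = 1.6e-04). Fibronectin FN1 had 1512, 1504 and 1449.7 CPM at 48 h, against 2053, 1615 and 2466 CPM in droplets (log2 fold change -0.46 ± 0.13, adjusted p = 0.0063).

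Of 17 genes that fold, hydroxylate or cross-link collagen, 9 were lower and 4 higher. The collagen chaperone SERPINH1 (HSP47) had 156, 152 and 154 CPM at 48 h, against 261, 234 and 263 CPM in droplets (log2 fold change -0.72 ± 0.061, adjusted p = 2.3e-09). LOXL4, a cross-linking oxidase, had 268, 236 and 209 CPM at 48 h, against 148, 132 and 144 CPM in droplets (log2 fold change 0.75 ± 0.18, adjusted p = 0.0027).

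Of 9 collagen receptors, 5 were lower and 1 was higher. ITGA1, ITGA2 and ITGA10 encode integrin chains that bind collagen. ITGA1 had 158, 144 and 108 CPM at 48 h, against 372, 353 and 409 CPM in droplets (log2 fold change -1.47 ± 0.22, adjusted p = 9.1e-05). ITGA2 had 613, 627 and 495 CPM at 48 h, against 828, 869 and 878 CPM in droplets (log2 fold change -0.57 ± 0.13, adjusted p = 0.0022), and ITGA10 had 62.0, 50.3 and 36.7 CPM at 48 h, against 238, 188 and 154 CPM in droplets (log2 fold change -1.96 ± 0.20, adjusted p = 2.5e-06). DDR1, a receptor kinase for collagen, had 155, 149 and 114 CPM at 48 h, against 306, 281 and 275 CPM in droplets (log2 fold change -1.04 ± 0.11, adjusted p = 8.2e-07). In all 4 genes every collagen library lay below every droplet library. ITGB1, the partner of the 3 integrin chains, was the member that rose, to 2437, 2586 and 2510.2 CPM at 48 h, against 1864, 1904 and 2032 CPM in droplets (log2 fold change 0.38 ± 0.052, adjusted p = 2.0e-06). Of 11 other integrin chains, 8 were lower and 2 higher, the laminin-binding chains ITGA3 (log2 fold change 0.18, adjusted p = 0.0033) and ITGA6 (log2 fold change 0.32, adjusted p = 2.9e-04). Of 21 focal adhesion and invadopodium genes, 8 were higher and 9 lower, with a median of 0.045. The steepest fall among them was that of SH3PXD2B (TKS4), a scaffold of invadopodia, the protrusions through which these cells deliver proteases, with 16.4, 16.7 and 14.7 CPM at 48 h in collagen, against 44.3, 43.7 and 47.6 CPM in droplets (log2 fold change -1.50 ± 0.087, adjusted p = 5.2e-12).

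Genes of DNA replication and mitosis were higher with few exceptions. Of 42 replication genes, 41 were higher and none was lower (median 0.910), and RPA2, a subunit of the single-strand binding complex, did not pass (log2 fold change 0.10, adjusted p = 0.19) except without control droplet replicate 1 (adjusted p = 0.037). MCM10, which loads polymerase at origins, had 44.0, 49.4 and 60.3 CPM at 48 h, against 20.1, 18.8 and 21.8 CPM in droplets (log2 fold change 1.34 ± 0.14, adjusted p = 1.1e-06). CDT1, the licensing factor, had 21.9, 24.9 and 27.8 CPM at 48 h, against 10.2, 10.03 and 9.75 CPM in droplets (log2 fold change 1.31 ± 0.11, adjusted p = 2.8e-09). UHRF1, which passes on DNA methylation behind the fork, stood at 90.4, 94.4 and 116 CPM at 48 h, against 40.0, 37.8 and 43.1 CPM in droplets. The lowest collagen library lay above the highest droplet library in all 3. Of 45 mitotic genes, 44 were higher and 1 lower (median 0.986). CDC20, the activator of the anaphase-promoting complex (chr1:43358955-43363203), had 205, 223 and 256 CPM at 48 h, against 67.7, 70.3 and 79.7 CPM in droplets (log2 fold change 1.65 ± 0.13, adjusted p = 4.0e-08). AURKB, the kinase of the chromosomal passenger complex, had 46.8, 56.1 and 60.7 CPM at 48 h, against 20.4, 20.9 and 23.6 CPM in droplets, and the proliferation marker MKI67 had 312, 333 and 349 CPM at 48 h, against 156, 156 and 181 CPM in droplets. All 3 collagen libraries exceeded all 3 droplet libraries in these genes. The phosphatase gene CDC25B was the mitotic member that fell, at 147, 145 and 149 CPM at 48 h in collagen, against 189, 198 and 204 CPM in droplets (log2 fold change -0.42 ± 0.056, adjusted p = 1.5e-06). Control droplet replicate 3 carried the most mitotic transcripts of its group: the median log2 ratio of the list to the mean of the droplet libraries was 0.223 there, against -0.032 in replicate 2 and -0.174 in replicate 1, and 0.914 to 1.11 at 48 h in collagen.

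Regulators around the cycle moved unevenly. Cyclin D1 (CCND1) had 1026, 1078 and 1092 CPM at 48 h, against 616, 605 and 595 CPM in droplets (log2 fold change 0.81 ± 0.049, adjusted p = 8.3e-12). CCNG2, a cyclin of resting cells, had 67.6, 63.0 and 52.7 CPM at 48 h, against 149, 151 and 152 CPM in droplets (log2 fold change -1.30 ± 0.10, adjusted p = 1.1e-08). The genes of the kinase inhibitors p21, p27 and p57 (CDKN1A, CDKN1B and CDKN1C) were all lower, with log2 fold changes of -0.29, -0.35 and -0.72. Of 22 targets of p53, 13 were lower and 5 higher (MDA-MB-231 cells carry a mutant p53). The stress cytokine GDF15 had 8.77, 8.10 and 6.86 CPM at 48 h in collagen, against 42.2, 45.8 and 32.9 CPM in droplets (log2 fold change -2.34 ± 0.31, adjusted p = 2.2e-05). Transcripts of replication-dependent histones, most of which lack a poly-A tail and are caught only in part by this library type, went against the replication genes: 9 of 13 were lower and 1 higher. H2AC6 had 22.8, 23.9 and 20.9 CPM at 48 h in collagen, against 76.7, 70.2 and 63.0 CPM in droplets (log2 fold change -1.63 ± 0.082, adjusted p = 5.9e-13), and the member that rose, H1-4, stayed under 1 CPM and lost its call without any 1 of 5 libraries.

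Promoters were searched for the letters that known regulators of these genes read. Shown from the same table are 2 replication genes with the E2F motif GGCGGGAA and 2 mitotic genes with the cell cycle homology region TTTGAA, bound by the DREAM complex, in capitals. Both were searched on both strands.
CDT1 (chr16:88803699-88803788, plus strand): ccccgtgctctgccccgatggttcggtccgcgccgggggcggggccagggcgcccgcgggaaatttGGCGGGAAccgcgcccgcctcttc
PCNA (chr20:5126634-5126723, minus strand): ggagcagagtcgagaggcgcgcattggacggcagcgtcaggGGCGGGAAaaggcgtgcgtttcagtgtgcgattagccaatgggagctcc
CCNB2 (chr15:59105056-59105145, plus strand): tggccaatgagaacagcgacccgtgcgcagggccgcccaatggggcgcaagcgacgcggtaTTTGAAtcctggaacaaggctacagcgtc
PLK1 (chr16:23678799-23678888, plus strand): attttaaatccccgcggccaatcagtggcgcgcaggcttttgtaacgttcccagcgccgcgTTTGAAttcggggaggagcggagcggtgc
Of 35 replication genes with a promoter in the table, 9 (25.7%) held the E2F motif and 1 (2.86%) the homology region. Of 38 mitotic genes, 3 (7.89%) held the E2F motif and 21 (55.3%) the homology region. Among all promoters the shares were 3.31% and 16.1%, and among tested genes 5.37% and 12.4%. CDT1 and PCNA had log2 fold changes of 1.31 and 0.68, and CCNB2 and PLK1 of 0.96 and 1.01.

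Genes that build ribosomes rose with them. All 28 tested genes of ribosome biogenesis were higher (median 0.682), among them RRS1, which assembles the large subunit, at 28.9, 30.2 and 35.3 CPM at 48 h, against 13.6, 14.1 and 12.8 CPM in droplets (log2 fold change 1.22 ± 0.098, adjusted p = 7.9e-10). NOP56, a core protein of the particles that methylate ribosomal RNA, had 215, 215 and 275 CPM at 48 h, against 107.5, 104 and 107.3 CPM in droplets (log2 fold change 1.15 ± 0.091, adjusted p = 6.5e-09). Of 73 ribosomal protein genes, 70 were higher and RPS4X was lower (median 0.451). None of the rises reached 2-fold, and RPSA had 714, 735 and 802 CPM at 48 h in collagen, against 413, 397 and 453 CPM in droplets (log2 fold change 0.83 ± 0.061, adjusted p = 1.9e-10). Ribosomal protein genes have many processed pseudogenes, between which reads can be split.

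Of 32 genes of the amino acid response under ATF4, 20 were higher and 4 lower. The serine synthesis genes PSAT1 and PHGDH were among them: PSAT1 had 104, 105 and 115 CPM at 48 h, against 27.9, 26.5 and 29.5 CPM in droplets (log2 fold change 1.95 ± 0.065, adjusted p = 1.4e-15), and PHGDH had 11.1, 10.5 and 10.8 CPM at 48 h, against 3.27, 4.25 and 4.59 CPM in droplets (log2 fold change 1.41 ± 0.14, adjusted p = 2.0e-08). SLC7A5, the large neutral amino acid carrier, had 457, 459 and 532 CPM at 48 h in collagen, against 174, 166 and 201 CPM in droplets (log2 fold change 1.419 ± 0.076, adjusted p = 3.6e-12). ATF4 itself, which is controlled mainly at translation, had 237, 228 and 223 CPM at 48 h, against 221, 226 and 218 CPM in droplets and did not pass (log2 fold change 0.05, adjusted p = 0.47).

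Nearly all interferon-stimulated genes were lower. Of 48 tested, 44 were lower, 22 of them at least 2-fold, and 1 was higher; the median was -0.985. OASL, an oligoadenylate synthetase relative, had 20.2, 22.2 and 19.3 CPM at 48 h, against 79.3, 71.6 and 81.2 CPM in droplets (log2 fold change -1.91 ± 0.083, adjusted p = 5.4e-14). MX1, a dynamin-like antiviral GTPase, had 8.65, 8.90 and 7.47 CPM at 48 h, against 26.8, 31.0 and 24.5 CPM in droplets (log2 fold change -1.72 ± 0.11, adjusted p = 3.4e-11). ISG15, a ubiquitin-like modifier, had 40.7, 47.6 and 41.8 CPM at 48 h, against 87.9, 85.5 and 86.5 CPM in droplets (log2 fold change -0.997 ± 0.078, adjusted p = 6.0e-10). The groups were apart in each. CXCL10, a chemokine for T cells, had 1.41, 1.96 and 0.648 CPM at 48 h, against 18.7, 21.7 and 26.0 CPM in droplets (log2 fold change -4.04 ± 0.38, adjusted p = 7.2e-07). IRF9, the gene of a factor that carries the interferon signal, was lower too, with 18.4, 17.4 and 16.2 CPM at 48 h, against 34.4, 32.3 and 30.6 CPM in droplets (log2 fold change -0.90 ± 0.081, adjusted p = 4.2e-09). The member that rose was SAMHD1, a nucleotide hydrolase (log2 fold change 0.21, adjusted p = 0.0027).

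From the same table, 3 promoters with the interferon response motif (GAAA, any 2 bases, GAAA), searched on both strands, are shown with its matches in capitals; TTTC, any 2 bases, TTTC is a match on the other strand.
ISG15 (chr1:1013347-1013436, plus strand): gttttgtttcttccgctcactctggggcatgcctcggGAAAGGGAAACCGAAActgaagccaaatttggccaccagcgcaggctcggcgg
IFIT1 (chr10:89392473-89392562, plus strand): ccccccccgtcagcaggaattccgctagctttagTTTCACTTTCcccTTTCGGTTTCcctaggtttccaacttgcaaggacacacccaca
CXCL10 (chr4:76023658-76023747, minus strand): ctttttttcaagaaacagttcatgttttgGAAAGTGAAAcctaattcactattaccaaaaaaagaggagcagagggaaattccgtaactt
ISG15 holds 2 overlapping matches, IFIT1 2 separate ones and CXCL10 a single one. The motif stood in 24 of the 37 interferon-stimulated genes with a promoter in the table (64.9%) and in 8 of 14 genes of class I presentation (57.1%), against 3.71% of all promoters and 3.49% of tested genes. It stood in 6.07% of genes at least 2-fold lower and in 2.72% of genes at least 2-fold higher. IFIT1 itself had 61.6, 61.6 and 61.4 CPM at 48 h in collagen, against 131, 137 and 126 CPM in droplets (log2 fold change -1.09 ± 0.060, adjusted p = 2.1e-12).

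Most genes of antigen presentation were lower too. Of 17 genes of the class I pathway, 16 were lower and TAP2 higher. TAPBP, which holds class I molecules at the peptide loader, had 251, 252 and 227 CPM at 48 h, against 577, 548 and 521 CPM in droplets (log2 fold change -1.17 ± 0.070, adjusted p = 8.3e-12). Of 13 class II genes, which depend on the coactivator CIITA, 12 were lower, all at least 2-fold, and none was higher; the median of -1.75 was the lowest but one of the 57 lists. The lists were drawn up with earlier results known, which can favour such a rank. HLA-DRA (chr6:32439842-32445046) had 75.0, 64.6 and 51.1 CPM at 48 h, against 325, 335 and 425 CPM in droplets (log2 fold change -2.51 ± 0.17, adjusted p = 2.3e-08). CIITA had 22.2, 21.9 and 22.3 CPM at 48 h, against 53.5, 48.7 and 49.2 CPM in droplets (log2 fold change -1.19 ± 0.097, adjusted p = 1.6e-09). No collagen library reached the lowest droplet library for these genes. HLA genes are polymorphic and similar to each other, so reads can be split or lost between them.

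Most of the tested chemokine, NF-kB and acute phase genes were lower too. Of 26 chemokines and cytokines, 16 were lower, 15 at least 2-fold, and 3 higher (median -1.40). CX3CL1, a membrane-bound chemokine, had 1.80, 1.88 and 1.25 CPM at 48 h, against 21.03, 17.98 and 20.6 CPM in droplets (log2 fold change -3.59 ± 0.19, adjusted p = 2.6e-12). LTB, a lymphotoxin, had 1.10, 0.835 and 0.432 CPM at 48 h, against 20.1, 16.6 and 11.8 CPM in droplets (log2 fold change -4.33 ± 0.46, adjusted p = 1.9e-06). The neutrophil chemokine genes CXCL1 and CXCL8 fell less steeply. CXCL1 had 38.8, 41.1 and 27.7 CPM at 48 h, against 136, 169 and 133 CPM in droplets (log2 fold change -2.03 ± 0.41, adjusted p = 0.0010), and CXCL8 had 186, 200.1 and 129 CPM at 48 h, against 388, 539 and 459.6 CPM in droplets (log2 fold change -1.43 ± 0.40, adjusted p = 0.0084). IL6 stood at 27.6, 29.1 and 34.4 CPM at 48 h, against 34.5, 50.7 and 47.6 CPM in droplets and did not pass (log2 fold change -0.55 ± 0.24, adjusted p = 0.064), except without control droplet replicate 1 and under 4 other settings. The members that rose were the gp130 cytokines IL11 and LIF and the IL10-family member IL24. IL11 had 56.9, 65.1 and 61.3 CPM at 48 h, against 18.5, 20.9 and 17.3 CPM in droplets (log2 fold change 1.69 ± 0.14, adjusted p = 5.7e-08).

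Of 20 regulators and targets of NF-kB, 13 were lower and 2 higher, NFKB1, the gene of the p50 subunit (log2 fold change 0.13, adjusted p = 0.029), and the surface protein gene CD83 (log2 fold change 0.42, adjusted p = 0.0023). The call of NFKB1 was lost without any 1 of 5 libraries, with library size alone and with no filter on low counts. ICAM1, an adhesion molecule for leukocytes, had 157, 152 and 101 CPM at 48 h, against 832, 783 and 721 CPM in droplets (log2 fold change -2.51 ± 0.35, adjusted p = 4.4e-05). SOD2, the mitochondrial superoxide dismutase, had 179.9, 188 and 141 CPM at 48 h, against 628, 743 and 676 CPM in droplets (log2 fold change -2.01 ± 0.29, adjusted p = 5.6e-05). NFKBIA, the feedback inhibitor, had 111, 114 and 85.4 CPM at 48 h, against 236, 223 and 174 CPM in droplets (log2 fold change -1.03 ± 0.20, adjusted p = 8.1e-04). Control 48 h replicate 3 was the lowest library for all 3 genes. RELA, the gene of the p65 subunit, did not pass (log2 fold change -0.08, adjusted p = 0.20), while RELB of the second pathway fell (log2 fold change -1.18, adjusted p = 1.8e-09). Of 17 complement and acute phase genes, 12 were lower and none higher, and C3, the central component, lost its call without any 1 of the 6 libraries (log2 fold change -1.08 ± 0.40, adjusted p = 0.037).

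Most of the tested secretory genes and several epithelial genes fell. Of 11 secretory, mucin and aquaporin genes, 9 were lower, 8 of them at least 2-fold, and the median of -2.46 was the lowest of all lists. Control 48 h replicate 3 stood apart, with a median log2 ratio to the droplet mean of -3.799, against -2.206 and -2.165 in replicates 1 and 2. All members summed to 41.8 to 56.5 CPM at 48 h and 187 to 275 CPM in droplets. The list was drawn up with earlier results of these data known, so its rank is favoured by that choice. The rest of its 20 members had too few counts to be tested. AQP3, a channel for water and glycerol, had 8.93, 12.2 and 7.73 CPM at 48 h, against 145, 121 and 73.7 CPM in droplets (log2 fold change -3.56 ± 0.28, adjusted p = 1.9e-07). The trefoil peptide gene TFF3 had 2.43, 2.80 and 1.90 CPM at 48 h, against 11.8, 11.4 and 10.6 CPM in droplets (log2 fold change -2.24 ± 0.18, adjusted p = 1.3e-09). MUC5B, a gel-forming mucin, stood at 0.744, 0.877 and 0.389 CPM at 48 h, against 9.63, 6.21 and 9.26 CPM in droplets. The member that rose, LTF (lactoferrin), stayed under 1 CPM and lost its call without any 1 of 4 libraries.

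Of 24 epithelial genes, 13 were lower and 8 higher. MUC1, a membrane mucin, had 10.02, 10.2 and 6.78 CPM at 48 h, against 50.2, 43.7 and 31.4 CPM in droplets (log2 fold change -2.21 ± 0.24, adjusted p = 2.3e-06). The tight junction gene CLDN7 had 79.0, 81.9 and 71.0 CPM at 48 h, against 42.2, 41.9 and 44.3 CPM in droplets (log2 fold change 0.85 ± 0.079, adjusted p = 7.8e-09). CDH1, the E-cadherin gene that is silent in these cells, was near its detection limit and did not pass (log2 fold change 0.45, adjusted p = 0.42). Of 10 genes of mesenchymal transition, SNAI2, VIM and CDH2 were higher and SNAI1, CDH11, PRRX1 and S100A4 lower. SNAI2, a repressor of epithelial genes, had 35.0, 35.7 and 37 CPM at 48 h in collagen, against 20.4, 20.7 and 16.8 CPM in droplets (log2 fold change 0.90 ± 0.095, adjusted p = 5.4e-08), and ZEB1, another, did not pass (log2 fold change -0.10, adjusted p = 0.14) except with libraries scaled by size alone (adjusted p = 0.044). Among keratins, KRT80 rose to 147, 142 and 151.5 CPM at 48 h, against 41.9, 40.8 and 43.4 CPM in droplets (log2 fold change 1.81 ± 0.074, adjusted p = 2.4e-14), while KRT8 and KRT18 did not pass (log2 fold change 0.04, adjusted p = 0.62 and log2 fold change 0.04, adjusted p = 0.58).

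Some falls differed in size within the droplet group. Of the droplet libraries, replicate 3 was the lowest for AQP3, SERPINE2, PTGS1, ALPP and RANBP3L. All kept their call without it, which is favoured, since leaving out the lowest droplet library widens a fall. PTGS1, the gene of cyclooxygenase 1, had 1.21, 1.55 and 1.425 CPM at 48 h, against 32.5, 19.4 and 7.11 CPM in droplets (log2 fold change -3.81 ± 0.54, adjusted p = 5.3e-05). ALPP, placental alkaline phosphatase, had 4.74, 5.76 and 4.40 CPM at 48 h, against 77.6, 71.6 and 30.9 CPM in droplets (log2 fold change -3.59 ± 0.34, adjusted p = 1.2e-06). RANBP3L, the steepest fall among the named genes, had 0.0783, 0.292 and 0.130 CPM at 48 h, against 8.83, 6.39 and 1.17 CPM in droplets (log2 fold change -4.99 ± 1.04, adjusted p = 0.0011). Its log2 fold change was -5.66 without control 48 h replicate 2 and -4.48 without control droplet replicate 1.

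Most of the tested genes of the endoplasmic reticulum and of the lysosome were lower. Of 25 chaperones and folding enzymes of the reticulum, 22 were lower and 1, WFS1, higher (median -0.641). WFS1 overlapped between the groups and lost its call without any 1 of 4 libraries. HSP90B1 (GRP94), one of the 5 largest losses in CPM, had 1660.2, 1602 and 1511 CPM at 48 h, against 2392, 2388 and 2873 CPM in droplets (log2 fold change -0.68 ± 0.087, adjusted p = 1.5e-06). HSPA5 (BiP) had 1054, 1103 and 975 CPM at 48 h, against 1513, 1522 and 1688 CPM in droplets (log2 fold change -0.59 ± 0.073, adjusted p = 5.0e-07), and CALR, the lectin calreticulin, had 1098, 1158 and 1084 CPM at 48 h, against 1893, 1931 and 2088 CPM in droplets (log2 fold change -0.82 ± 0.063, adjusted p = 4.0e-10). Heat shock proteins outside this compartment differed: 14 of 24 were higher and 7 lower, with the mitochondrial chaperonin gene HSPD1 at 395, 408 and 476 CPM at 48 h, against 231, 247 and 267 CPM in droplets (log2 fold change 0.78 ± 0.076, adjusted p = 2.5e-08).

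Of 29 lysosomal and autophagy genes, 19 were lower and 4 higher. CTSD, the aspartic protease cathepsin D, had 1216, 1233 and 973 CPM at 48 h, against 2905, 2773 and 2533 CPM in droplets (log2 fold change -1.26 ± 0.096, adjusted p = 4.1e-09). CTSO, a cysteine cathepsin, had 5.99, 7.22 and 5.83 CPM at 48 h, against 29.6, 28.6 and 34.7 CPM in droplets (log2 fold change -2.29 ± 0.12, adjusted p = 7.1e-13). SQSTM1 (p62), an adaptor of autophagy, had 289, 299.8 and 259 CPM at 48 h, against 662, 672 and 570.2 CPM in droplets (log2 fold change -1.17 ± 0.10, adjusted p = 6.6e-08). CTSV, a cysteine cathepsin with elastase activity, was higher (log2 fold change 1.01, adjusted p = 7.4e-04).

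Metabolic lists were mostly divided. Of 35 hypoxia genes, 18 were lower and 3 higher (median -0.30). NDRG1, a hypoxia-induced gene, had 424, 356 and 264 CPM at 48 h, against 777, 695 and 740.2 CPM in droplets (log2 fold change -1.08 ± 0.23, adjusted p = 0.0014). ANGPTL4, which inhibits lipoprotein lipase, had 22.4, 25.5 and 21.4 CPM at 48 h, against 73.3, 57.9 and 63.3 CPM in droplets (log2 fold change -1.49 ± 0.17, adjusted p = 4.5e-06). The glucose carrier gene SLC2A3 had 68.5, 57.3 and 46.4 CPM at 48 h, against 105, 101 and 108 CPM in droplets (log2 fold change -0.87 ± 0.13, adjusted p = 4.9e-05), whereas its relative SLC2A1 was among the 3 that rose (log2 fold change 0.40, adjusted p = 4.7e-07). VEGFA, the angiogenic ligand, had 585, 547 and 551 CPM at 48 h, against 578, 542 and 539.9 CPM in droplets and did not pass (log2 fold change 0.02 ± 0.090, adjusted p = 0.87). CA9, a common hypoxia marker, was low and did not pass either (log2 fold change -0.18, adjusted p = 0.60).

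Of 19 glycolytic genes, 7 were higher and 4 lower, none at least 2-fold. PKM, the gene of pyruvate kinase, had 2627, 2629 and 2433 CPM at 48 h, against 3708, 3703 and 3334 CPM in droplets (log2 fold change -0.48 ± 0.062, adjusted p = 7.6e-07), 1 of the 5 largest losses in CPM. Of 13 mitochondrially encoded mRNAs, 11 were higher and none lower (median 0.732). MT-ND2, a subunit of complex I, had 3885, 3459 and 3127 CPM at 48 h, against 2038, 1923 and 1608 CPM in droplets (log2 fold change 0.91 ± 0.19, adjusted p = 9.8e-04). MT-CO1, a subunit of complex IV and the largest gain in CPM, had 8973, 8631 and 6439 CPM at 48 h, against 6074, 6263 and 4861 CPM in droplets (log2 fold change 0.48 ± 0.19, adjusted p = 0.046). The call of MT-CO1 was lost when the replicate number was a block, when libraries were scaled by size alone, and without any 1 of 5 libraries. Of 36 nuclear-encoded subunits of the respiratory chain, 9 were higher and 5 lower, with a median of 0.018.

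In lipid metabolism single genes changed strongly while lists did not move one way. PDK4, the kinase that shuts pyruvate out of the citric acid cycle, had 13.2, 12.2 and 10.6 CPM at 48 h, against 94.7, 77.5 and 91.5 CPM in droplets (log2 fold change -2.87 ± 0.10, adjusted p = 1.2e-14). G0S2, an inhibitor of the lipase ATGL, had 196, 220.3 and 240.1 CPM at 48 h, against 44.6, 51.0 and 57.2 CPM in droplets (log2 fold change 2.10 ± 0.092, adjusted p = 2.0e-12). PLIN2, which coats lipid droplets, had 87.0, 94.3 and 82.4 CPM at 48 h, against 202, 197 and 201 CPM in droplets (log2 fold change -1.19 ± 0.089, adjusted p = 2.5e-09). Of 25 genes of cholesterol synthesis and uptake, 6 were higher and 7 lower, and of 21 genes of fatty acid synthesis 6 were higher and 8 lower. The desaturase gene SCD had 345, 276 and 235 CPM at 48 h, against 501, 612 and 421 CPM in droplets (log2 fold change -0.84 ± 0.17, adjusted p = 0.0010).

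Of 17 metallothioneins and targets of the antioxidant factor NRF2, 7 were higher and 9 lower. The metal-binding MT1E rose to 40.5, 41.1 and 51.1 CPM at 48 h, against 8.18, 8.06 and 10.4 CPM in droplets (log2 fold change 2.31 ± 0.11, adjusted p = 6.5e-13). Its relative MT2A rose to 321, 390.1 and 386 CPM at 48 h, against 166, 173 and 173 CPM in droplets (log2 fold change 1.10 ± 0.078, adjusted p = 3.9e-10). The NRF2 target NQO1, a quinone reductase, fell (log2 fold change -0.93 ± 0.077, adjusted p = 2.7e-09). AOX1, aldehyde oxidase, had 84.6, 90.1 and 98.7 CPM at 48 h, against 5.66, 6.64 and 6.92 CPM in droplets (log2 fold change 3.82 ± 0.10, adjusted p = 5.7e-17).

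Secreted signals formed the last group. EDN1, the peptide endothelin 1, had 44.0, 48.1 and 53.9 CPM at 48 h, against 4.67, 4.64 and 3.27 CPM in droplets (log2 fold change 3.54 ± 0.16, adjusted p = 1.7e-11). DKK1, a secreted Wnt antagonist, had 359, 398 and 445 CPM at 48 h, against 74.5, 72.6 and 62.1 CPM in droplets (log2 fold change 2.52 ± 0.11, adjusted p = 4.8e-12). FST, which traps activins, had 51.3, 52.3 and 61.0 CPM at 48 h, against 17.5, 14.6 and 12.3 CPM in droplets (log2 fold change 1.90 ± 0.20, adjusted p = 1.8e-06). All 3 were several times higher in every collagen library. SEMA7A, a membrane-anchored semaphorin that binds integrins, had 80.5, 78.3 and 91.9 CPM at 48 h, against 24.3, 23.4 and 24.2 CPM in droplets (log2 fold change 1.80 ± 0.074). The growth factor gene FGF5 had 47.4, 50.9 and 55.6 CPM at 48 h, against 13.4, 15.7 and 16.0 CPM in droplets (log2 fold change 1.76 ± 0.11). Among genes that report incoming signals, the Wnt target AXIN2 was lower (log2 fold change -1.14, adjusted p = 1.6e-08), and the Notch target HES1 had 6.18, 7.06 and 5.66 CPM at 48 h, against 18.3, 17.2 and 19.1 CPM in droplets (log2 fold change -1.53 ± 0.14, adjusted p = 7.8e-09). In the whole lists, 11 of 29 Wnt, Notch and BMP genes were higher and 14 lower, and 10 of 27 angiogenic and guidance genes were higher and 10 lower. IGFBP4, which binds insulin-like growth factors, lost the most CPM of the called genes whose groups did not overlap, with 3925, 3979 and 3549.6 CPM at 48 h in collagen, against 6092, 5896 and 6055 CPM in droplets (log2 fold change -0.66 ± 0.077, adjusted p = 2.7e-07).

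Of 20 apoptosis regulators, 6 were higher and 9 lower. BMF, a BH3-only protein that acts when cells detach, had 24.7, 24.8 and 19.4 CPM at 48 h, against 75.7, 73.7 and 75.9 CPM in droplets (log2 fold change -1.71 ± 0.099, adjusted p = 2.9e-11). The survival gene BCL2 had 11.6, 10.4 and 13.3 CPM at 48 h, against 6.12, 5.46 and 6.74 CPM in droplets (log2 fold change 0.95 ± 0.14, adjusted p = 6.0e-06). Other genes with large rises belong to none of these groups. KRTAP2-3, a hair keratin-associated protein, had 14.8, 15.03 and 20.2 CPM at 48 h, against 0.467, 0.107 and 0.226 CPM in droplets (log2 fold change 6.02 ± 0.27, adjusted p = 6.5e-13). Its log2 fold change was 6.61 without control droplet replicate 1 and 5.62 without control droplet replicate 2. KISS1, the precursor of kisspeptins, had 20, 25.8 and 26.2 CPM at 48 h, against 2.76, 2.93 and 2.18 CPM in droplets (log2 fold change 3.19 ± 0.20, adjusted p = 7.5e-10). CPA4, a carboxypeptidase, had 51.6, 47.1 and 53.9 CPM at 48 h, against 5.23, 5.17 and 3.76 CPM in droplets (log2 fold change 3.43 ± 0.13, adjusted p = 2.4e-14). MUSK, the kinase of the neuromuscular synapse, had 10.3, 11.4 and 11.1 CPM at 48 h, against 0.888, 0.821 and 1.32 CPM in droplets (log2 fold change 3.43 ± 0.16, adjusted p = 2.0e-13). In each of the 4 genes the collagen libraries lay far above the droplet libraries.

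Control spheroids sampled after 24 h in collagen give an earlier point for the same change. The comparison described here is 48 h against 24 h, which shares the control 48 h libraries with the comparison above, and droplet levels stand beside it as values. At 48 h, 1077 genes (6.32%) were higher and 1171 (6.88%) lower than at 24 h. Immediate-early genes stood lower at 48 h than at 24 h: 13 of 18 EGR, KLF and NR4A genes and 6 of 12 AP-1 subunits were lower, and 2 and 1 higher. EGR1 had 26.2, 23.3 and 24.7 CPM in droplets, 476, 419 and 422 CPM at 24 h and 150.2, 147 and 136 CPM at 48 h, and the 48 h level was lower than the 24 h level (log2 fold change -1.60 ± 0.12, adjusted p = 5.1e-07). ATF3 had 279.6, 306 and 235 CPM at 24 h, above every library at 48 h (log2 fold change -2.40 ± 0.12, adjusted p = 1.5e-08, 48 h over 24 h). Of the 30 dissociation genes, 18 were lower at 48 h than at 24 h and none higher. Both groups were digested.

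Replication and mitosis genes moved in opposite directions between the times. Of 42 replication genes, 31 were lower at 48 h than at 24 h and none higher, while 37 of 45 mitotic genes were higher at 48 h and none lower. MCM10 had 20.1, 18.8 and 21.8 CPM in droplets, 66.2, 86.0 and 88.2 CPM at 24 h and 44.0, 49.4 and 60.3 CPM at 48 h (log2 fold change -0.65 ± 0.13, adjusted p = 0.0046, 48 h over 24 h). CDC20 had 67.7, 70.3 and 79.7 CPM in droplets, 77.8, 100.2 and 97.0 CPM at 24 h and 205, 223 and 256 CPM at 48 h (log2 fold change 1.31 ± 0.12, adjusted p = 9.8e-06). All 3 libraries at 48 h exceeded those at 24 h, and 1 library at 24 h lay within the range of the droplets. The list medians show the same order: relative to the droplet mean, replication genes stood at 1.12, 1.48 and 1.5 (log2) at 24 h and at 0.786, 0.809 and 1.08 at 48 h, and mitotic genes at 0.019, 0.465 and 0.400 at 24 h and at 0.914, 1.00 and 1.11 at 48 h.

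Other groups differed in how many members were called between the times. Of 28 YAP and TAZ targets, 3 were higher and 3 lower at 48 h than at 24 h, of 73 ribosomal protein genes 1 was higher and none lower, and of 48 interferon-stimulated genes 6 were higher and 2 lower. CCN1 had 1604, 1671 and 1769 CPM at 24 h and OASL 23.0, 22.7 and 18.2 CPM, and neither differed between the times beyond the threshold (log2 fold change -0.02, adjusted p = 0.93 and log2 fold change -0.05, adjusted p = 0.78, 48 h over 24 h). Of 26 chemokines and cytokines, 10 were lower at 48 h than at 24 h and 1 higher, and of 22 collagen chains 11 were lower and 1 higher. Of 17 genes that fold or cross-link collagen 8 were lower and none higher, of 13 metalloproteinases 5 were lower and none higher, of 23 targets of TGF-beta 9 were lower and none higher, and of 36 nuclear-encoded respiratory chain subunits 11 were higher and none lower. Control 24 h replicate 1 stood apart in the chemokine list, with a median log2 ratio to the droplet mean of 0.067, against -0.948 and -1.07 in the other 2 libraries of that group. Without it, 7 of the 26 were lower and 1 higher, and 10 interferon-stimulated genes were higher, in place of 6. MMP14 stood at 1976, 1767 and 1713 CPM at 24 h and was lower at 48 h (log2 fold change -0.33 ± 0.081, adjusted p = 0.0092). Calls of this comparison depended on single libraries: leaving out control 24 h replicate 2 gave 604 higher and 745 lower, and the higher calls numbered 679 when either control 24 h replicate 3 or control 48 h replicate 1 was left out and 655 when control 48 h replicate 2 was.

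**Figure D3:**
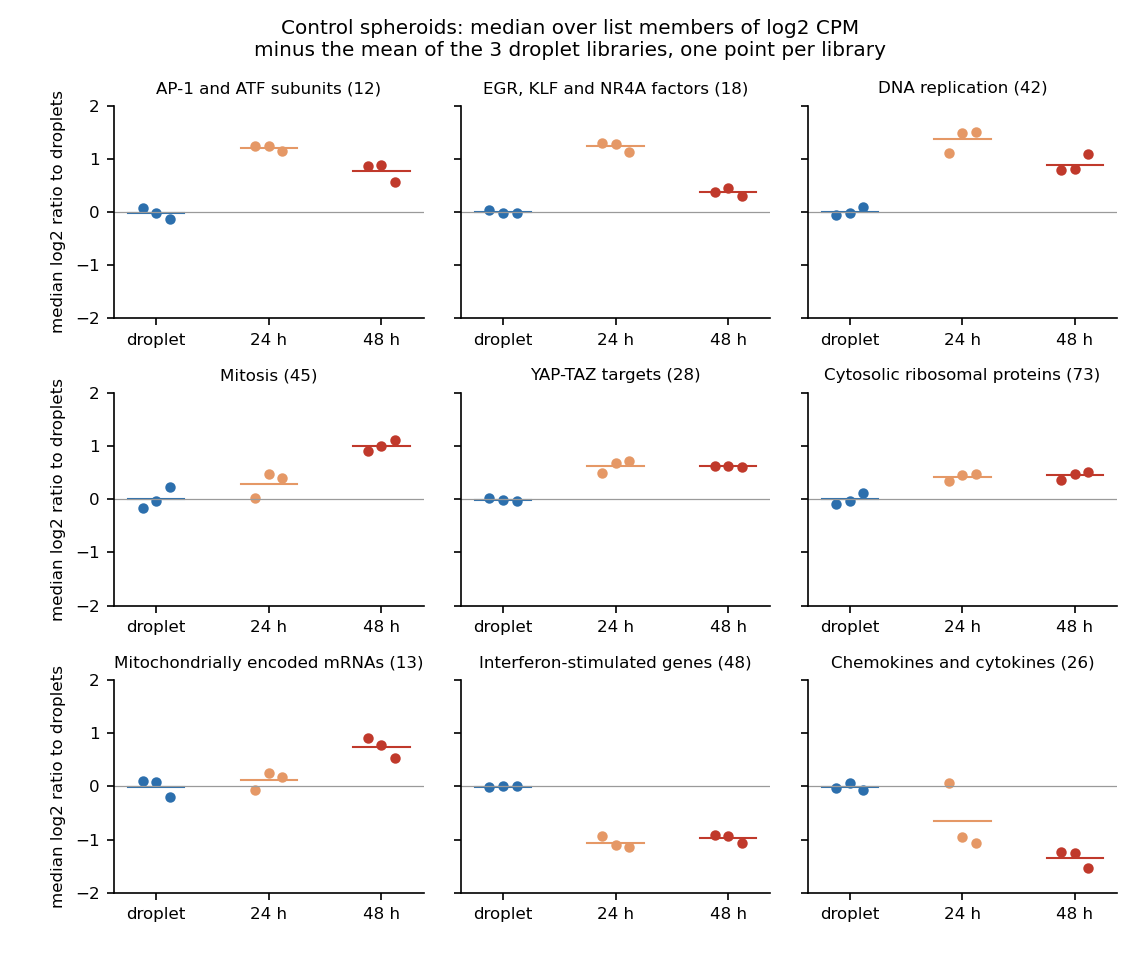
Median over the tested members of 9 lists of log2 CPM minus the mean of the 3 droplet libraries, for droplets, 24 h and 48 h in collagen (x axis); each point is a control library, the line is the mean of 3, and member numbers are in brackets. Immediate-early and replication lists are highest at 24 h, the mitotic and mitochondrial lists at 48 h, and the YAP and TAZ, ribosomal and interferon lists lie at similar heights at 24 h and 48 h.

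MMP14-KO spheroids give the same contrast between other libraries, in the same fit, whose filter and error term all 18 libraries share. Of 17030 genes, 4399 (25.8%) were higher and 4018 (23.6%) lower at 48 h in collagen than in droplets. Of the 861 genes at least 2-fold higher in control spheroids, 703 (81.6%) were called higher in MMP14-KO spheroids and none was called lower. Of the 1010 at least 2-fold lower in control spheroids, 700 (69.3%) were called lower and 2 higher. Over all calls, the shared rises were 3281, which is 69.5% of the control rises and 74.6% of the MMP14-KO rises, and the shared falls were 3215, which is 68.6% of the control falls and 80.0% of the MMP14-KO falls. By group, 11 of 12 AP-1 subunits, 20 of 28 YAP and TAZ targets, 33 of 42 replication genes and 39 of 45 mitotic genes were higher there, and 43 of 48 interferon-stimulated genes and 12 of 13 class II genes were lower. FOSB had 123, 124 and 112 CPM at 48 h, against 1.15, 1.02 and 1.20 CPM in droplets, and HLA-DRA 97.4, 78.1 and 74.0 CPM, against 387, 387 and 413 CPM, in MMP14-KO spheroids.

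The difference of the 2 responses was tested as an interaction. It was called in 682 genes (4.0%) with a higher value in MMP14-KO spheroids and in 474 (2.78%) with a lower one. The genes named here were chosen by their response in the control libraries, which also enter the difference, so a smaller response in MMP14-KO spheroids is favoured by the choice. Among the named genes the smallest adjusted p on the higher side was that of NEDD9, a docking protein of focal adhesions: it had 36.3, 39.4 and 36.8 CPM at 48 h, against 27.3, 28.0 and 28.0 CPM in droplets, in MMP14-KO spheroids, and 32.3, 35.0 and 33.5 CPM, against 51.1, 45.4 and 47.4 CPM, in control spheroids (difference of log2 fold changes 0.94 ± 0.10, adjusted p = 7.2e-05). It rose in MMP14-KO spheroids (log2 fold change 0.43, adjusted p = 3.7e-05) and fell in control spheroids (log2 fold change -0.51, adjusted p = 2.2e-06). On the lower side it was G0S2, with 191, 164 and 162 CPM at 48 h, against 93.2, 95.9 and 85.2 CPM in droplets, in MMP14-KO spheroids, and 196, 220.3 and 240.1 CPM, against 44.6, 51.0 and 57.2 CPM, in control spheroids (difference -1.18 ± 0.13, adjusted p = 9.8e-05). CCN2 rose in both genotypes, by 2.18 in MMP14-KO and 3.08 in control spheroids (difference -0.90 ± 0.11, adjusted p = 2.5e-04). By list, the value was lower in MMP14-KO spheroids for 9 of 42 replication genes, 6 of 28 YAP and TAZ targets and 1 of 45 mitotic genes. It was higher for 10 of 48 interferon-stimulated genes and 2 of 13 class II genes. Their median log2 fold changes, in this order, were 0.532, 0.548, 0.576, -0.75 and -1.60 in MMP14-KO spheroids. In control spheroids they were 0.910, 0.615, 0.986, -0.985 and -1.75. None of the 12 AP-1 subunits was called different. With 4.0% and 2.78% of all genes called, that count does not show equal responses. Ribosomal protein genes were called higher in 30 of 73 cases in MMP14-KO spheroids, against 70 in control spheroids, and 32 of the 73 differed, all with the lower value in MMP14-KO spheroids. These counts depend on single libraries. Without control droplet replicate 1 the difference was called in 191 genes with a higher and 125 with a lower value, and in 5 ribosomal protein genes. Without control droplet replicate 3 it was called in 987 and 990 genes, and in 55 ribosomal protein genes. The counts also moved by over 1.5 times without control droplet replicate 2 (266 and 192), control 48 h replicate 3 (199 and 138), MMP14-KO droplet replicate 3 (240 and 154), MMP14-KO droplet replicate 1 (385 higher), MMP14-KO 48 h replicate 2 (419 higher) and control 48 h replicate 2 (269 lower).

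**Figure D4:**
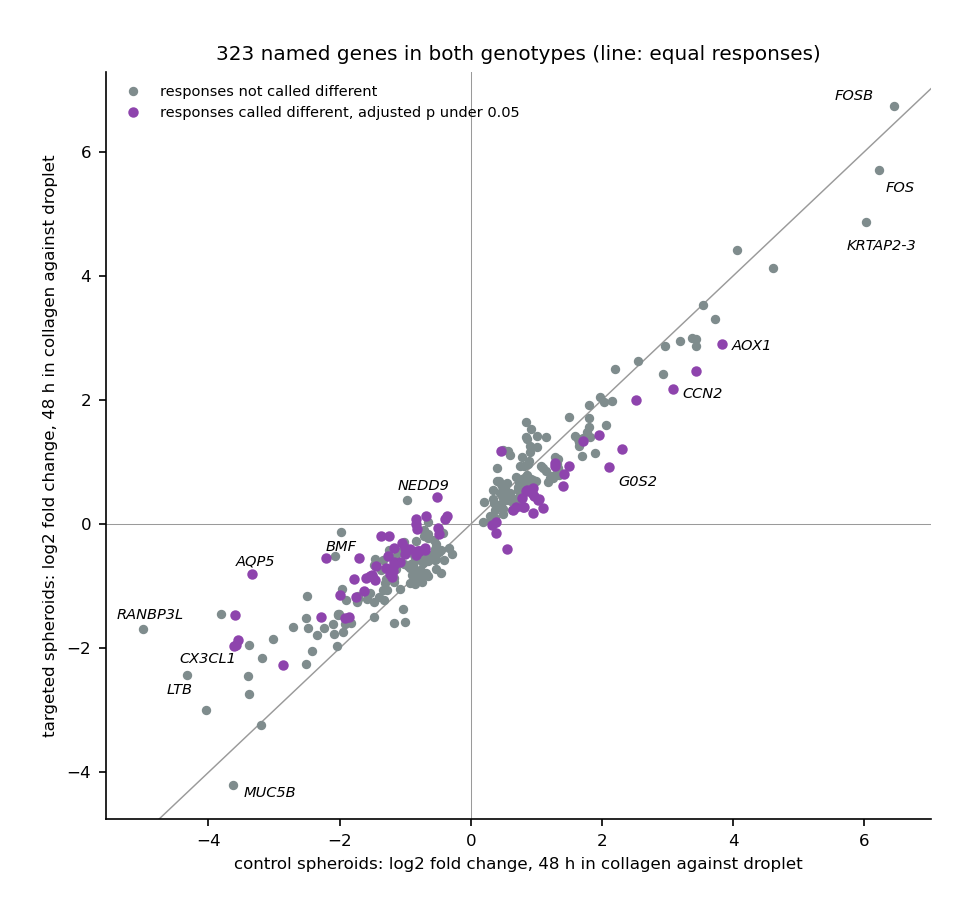
Log2 fold change of 48 h in collagen over droplet in MMP14-KO spheroids (y axis, labelled targeted) against that in control spheroids (x axis) for 323 named genes; the grey line marks equal responses and the 83 purple points are genes whose responses differed at an adjusted p under 0.05. Most points lie along the line, NEDD9 lies on opposite sides of 0, and many purple points lie nearer to 0 in MMP14-KO than in control spheroids.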

How the data were processed

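RNA of 18 libraries was sequenced, 3 in each of 6 groups, and the comparison described here uses 6 of them. The values deposited by the authors are expected counts per gene from RSEM; all of them are whole numbers. The submitters' processing notes name cutadapt 2.3, FastQC 0.11.8, STAR 2.7.8a, RSEM 1.3.3, MultiQC 1.7, DESeq2 1.42.0 and GRCh38; the annotation release is not given in the sources used here. Of 62714 rows, 4 reporter rows, with 0 counts, were left out, and libraries summed to 19819401 to 33352163 counts.

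Genes were filtered (filterByExpr, minimum count 10), scaled by TMM and tested with edgeR 4.0.16 in R 4.3.3 (robust quasi-likelihood, 1 coefficient per group, all 18 libraries, 12 residual degrees of freedom); p-values were adjusted by Benjamini-Hochberg, threshold 0.05. The standard error of a log2 fold change is its size over the root of its F value. The code was run on simulated data in which every gene had the same dispersion, which does not measure the error rate in these data. Gene coordinates came from GENCODE 29 by identifier, and promoters from RefSeq by symbol. The lists hold 1220 genes, of which 2 matched no row; no list was tested as a set. Members and lists, 57 in all, were chosen with earlier results of these data known.

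Named genes followed a rule: the 15 largest rises and falls by fold and the 5 by CPM (called, no overlap, at least 5 CPM), up to 6 called members per list, members a reader would ask for whether or not they passed, the 6 smallest adjusted p in each direction of the other comparisons, and MMP14. Not all of them are printed. Alternatives were leaving out each library, fitting the 6 libraries alone, other scalings and filters, DESeq2, and the replicate number as a block. A few genes are not reported here.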

Additional observations from a re-analysis of the deposited data

Results flagged for a closer look

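Of 323 named genes, 83 had a response to 48 h in collagen that differed between MMP14-KO and control spheroids in edgeR's interaction test. Listed here for this difference between groups are MMP14 and, of the named genes, the 6 with the smallest adjusted p in each direction. Each value is the MMP14-KO log2 fold change minus that of control spheroids, and the cause of the difference was not tested. The named genes were chosen by their response in the control libraries, and these 12 by the test itself. That the 12 kept their direction and their call under each of the 18 alternatives run is favoured by this choice and says nothing of the other calls, whose number depends on single libraries.

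The difference was positive in 6 of these 12. For NEDD9, which rose in MMP14-KO and fell in control spheroids, it was 0.94 ± 0.10. In the other 5 the gene fell in control spheroids. BMF, the BH3-only gene, had 40.4, 44.3 and 36.5 CPM at 48 h, against 57.3, 61.7 and 58.1 CPM in droplets, in MMP14-KO spheroids (difference 1.16 ± 0.14, adjusted p = 1.6e-04). CX3CL1 had 3.94, 3.94 and 4.01 CPM at 48 h, against 16.5, 17.1 and 12.1 CPM in droplets, in MMP14-KO spheroids (difference 1.65 ± 0.26, adjusted p = 0.0026). PDGFRB, a receptor for platelet-derived growth factor, differed by 1.04 ± 0.15, with 17.2, 16.8 and 16.0 CPM at 48 h, against 19.3, 22.0 and 16.1 CPM in droplets, in MMP14-KO spheroids, and 11.6, 10.5 and 10.4 CPM, against 27.9, 25.8 and 23.3 CPM, in control spheroids. The invadopodium scaffold gene SH3PXD2B differed by 0.68 ± 0.12, and the cathepsin gene CTSD by 0.75 ± 0.13.

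The difference was negative in the other 6, which rose in control spheroids. G0S2 differed by -1.18 ± 0.13 and CCN2 by -0.90 ± 0.11. The metallothionein gene MT1E had 29.5, 27.1 and 29.5 CPM at 48 h, against 11.1, 11.7 and 14.3 CPM in droplets, in MMP14-KO spheroids (difference -1.10 ± 0.16), and MT2A differed by -0.84 ± 0.11. AOX1 had 51.0, 61.6 and 63.4 CPM at 48 h, against 7.29, 8.05 and 8.16 CPM in droplets, in MMP14-KO spheroids (difference -0.92 ± 0.14). PSAT1 differed by -0.51 ± 0.090, the smallest of the 12.

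MMP14 itself fell in control spheroids, and in MMP14-KO spheroids, where its level was far lower, it had 163, 143 and 138 CPM at 48 h, against 159, 149 and 156 CPM in droplets (difference 0.44 ± 0.12, adjusted p = 0.030). The call was lost without any 1 of 8 of the libraries, with the direction kept in each.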

How the results depend on the processing

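The 4722 higher and 4686 lower genes at 48 h in collagen ranged from 4232 to 4483 and from 4162 to 4509 with 1 of the 6 libraries left out, and from 4285 to 4776 and 4453 to 5176 under the other settings (the 6 libraries alone, RLE factors, library size alone, no or a stricter filter, DESeq2, the block). At least 2-fold, they ranged from 746 to 889 and 912 to 1095 without 1 library, and from 682 to 996 and 802 to 1198 otherwise. The 48 h against 24 h calls ranged from 604 to 898 (higher) and 745 to 1129 (lower) without 1 library, and the MMP14-KO calls from 3653 to 4054 and 3710 to 4012. The difference between the genotypes moved most: 191 to 987 genes with a higher and 125 to 990 with a lower value in MMP14-KO spheroids without 1 library, 1106 and 1004 with no filter, and, for lower values, 304 with library size alone and 904 with DESeq2; the cause was not tested.

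Groups share replicate numbers in the labels. Same-numbered libraries of the 2 control groups did not deviate together (r across genes -0.014, 0.013 and 0.0004). No pairing was seen, but so few libraries cannot show that there was none. With the replicate block, calls were 4776 higher and 4739 lower, and the difference between the genotypes was called higher in 990 and lower in 848 genes.

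Of the list counts run under these settings, 31 moved under at least 1 of them. The margin was the fold used above for the counts of the difference between the genotypes. Of all such values, 115 lay beyond that margin and 1811 within it. Among the named genes of the main comparison, 12 lost and 4 gained their call under at least 1 setting. The values that changed sign belonged to genes that had not passed, and none passed after the change: DUSP6 0.010 without control 48 h replicate 3 and 0.022 without control droplet replicate 3 (range -0.080 to 0.022), PLAUR 0.016 without control droplet replicate 3 (range -0.125 to 0.016), VEGFA -0.021 with library size alone and -0.015 without control 48 h replicate 1 (range -0.015 to 0.050), KRT18 -0.003 and KRT8 -0.002 with library size alone, and, for 48 h against 24 h, CCN1 0.054, 0.001 and 0.013 without control 48 h replicate 1, control 48 h replicate 2 and control 24 h replicate 3 (range -0.135 to 0.054), and OASL 0.011 without control 24 h replicate 1 (range -0.158 to 0.011). Ranges are over libraries left out singly. Fold changes of genes under 1 CPM rest on few counts, and differences at that depth were not detectable unless large.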
